A study of Mus musculus with 18 samples.

Results

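The genes that encode the proteins of the cytosolic ribosome were followed in sorted brain macrophages of mice after bone marrow transplantation. A gene was a member when its symbol was that of a small-subunit (Rps) or large-subunit (Rpl) protein, one of the acidic stalk proteins Rplp0 to Rplp2, Rpsa or Fau; ribosomal S6 kinases and rows with a -ps pseudogene suffix were left out. The rule used names only, and 87 of the 13043 genes in the table met it. Of these, 82 are annotated as protein-coding, 33 of the small and 49 of the large subunit. The other 5 (Rps4l, Rps12l1, Rpl32l, Rps3a2 and Rps3a3) are annotated as processed pseudogenes although their symbols do not say so.

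All recipients were lethally irradiated wild-type C57BL6/C mice, and the marrow came from donors that carried Ms4a3-Cre, R26-TdTomato and Cx3cr1-gfp. Ms4a3-Cre acts in granulocyte and monocyte progenitors, so that their progeny switch on TdTomato, and Cx3cr1-gfp labels mononuclear phagocytes. Cells were sorted 32 weeks after transplantation as host microglia with no colour, as monocyte-derived cells with GFP and TdTomato, or as cells derived from haematopoietic stem cells (HSC) with GFP alone. Microglia of all 3 kinds had 4 libraries each, as had leptomeningeal macrophages of monocyte origin; those of HSC origin had 2. Up to 100000 cells were sorted per sample, and neither age nor sex of the mice is given in the sources used here. No host leptomeningeal group was analysed here, and origin rests on the label alone. Nothing in the labels says that replicates are separate mice, so p-values measure only the spread between these samples, which may be technical.

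A ribosome is built from ribosomal RNA and one copy of almost every ribosomal protein. The small subunit decodes the messenger RNA, the large subunit joins amino acids, and the stalk of the large subunit recruits elongation factors. Most ribosomal protein transcripts begin with a C followed by a run of pyrimidines, the 5′ terminal oligopyrimidine (5′TOP) motif, through which mTORC1 and Larp1 set how strongly they are translated. Macrophages make these transcripts in large amounts, and their level differs between resting and growing or activated cells. The counts here measure the transcripts and not their translation.

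The start of a few members is shown to let the pyrimidine run be seen beside the values that follow. Windows of 30 bases, 15 before and 15 from the annotated start on, come from RefSeq (GRCm38.p6), and capitals mark a C followed by at least 4 pyrimidines whose first base lies within 5 bases of the start. Rps24, Rpl38, Rps15a, Rps10, Rpl22l1, Rpl13 and Rpl26 were members with higher levels in monocyte-derived than host microglia; Rps27l and Rpl7l1 were lower there, Rpl7a differed widely between libraries, and Fau and Rplp2 were among the members lower in monocyte-derived than HSC-derived microglia. The run stands at different places in this short window, and Rpl13, Rpl26 and Rpl7l1 show none. Rps24 and Rps27l each have a further annotated start, not shown, whose window holds no such run.
Rps24, chr14:24490663-24490692, + strand: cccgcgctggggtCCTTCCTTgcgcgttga
Rpl38, chr11:114668565-114668594, + strand: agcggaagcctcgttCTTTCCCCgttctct
Rps15a, chr7:118116133-118116162, - strand: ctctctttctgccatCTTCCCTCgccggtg
Rps10, chr17:27635230-27635259, - strand: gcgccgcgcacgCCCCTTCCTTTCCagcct
Rpl22l1, chr3:28805493-28805522, + strand: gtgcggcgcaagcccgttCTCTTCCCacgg
Rpl13, chr8:123102335-123102364, + strand: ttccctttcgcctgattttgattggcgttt
Rpl26, chr11:68901551-68901580, + strand: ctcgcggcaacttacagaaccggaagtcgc
Rps27l, chr9:66946071-66946100, + strand: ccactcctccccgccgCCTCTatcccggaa
Rpl7l1, chr17:46782642-46782671, - strand: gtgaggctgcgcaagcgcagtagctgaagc
Rpl7a, chr2:26910792-26910821, + strand: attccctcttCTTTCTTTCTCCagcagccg
Fau, chr19:6057932-6057961, + strand: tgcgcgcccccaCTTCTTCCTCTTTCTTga
Rplp2, chr7:141447636-141447665, + strand: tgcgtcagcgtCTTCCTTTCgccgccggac

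RefSeq held a start for 62 of the 82 protein-coding members, at 73 start sites. A run as defined above was found at 32 of these sites, or 43.8%, against 19.8% of the start sites of the other tested genes. A C at the annotated first base with at least 4 pyrimidines after it, which may lie inside a run that begins earlier, stood at 14 sites, or 19.2%, against 2.2%. Annotated starts can lie some bases away from the base used in a cell, so a site without capitals says only that these letters are not in this window. Members with and without a run gave similar counts with all libraries. In HSC-derived against host microglia 26 of 30 with a run and 30 of 31 tested members without one were higher, against 16.3% of all genes. The median log2 fold changes were 1.67 and 1.47. These values include the 2 HSC-derived microglia libraries of low depth described below, and the values without them are not given.

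Depth ranged from 154727 to 2440234 counts per library, and 3 counts equalled 1.05 to 23.1 CPM (counts scaled to a common library size with TMM factors). Each count is 1 molecule tagged near the 3′ end, so levels can be compared between genes without a correction for length. A set of 3 libraries stood apart by depth: HSC-derived microglia replicates 3 and 4 (264795 and 317872 counts) and HSC-derived leptomeningeal macrophage replicate 2 (154727 counts). Many results that rest on these 3 shallow libraries are given with and without them, and otherwise all libraries were used. The other HSC-derived libraries, called deeper here, also lay below all the rest. They had 691691 and 692884 counts in microglia and 648266 counts in leptomeningeal macrophages. Host and monocyte-derived libraries had 1066281 to 2440234 counts. Depth and HSC origin thus cannot be told apart, with or without the shallow libraries. The summed level of 8 microglial markers was 19098 to 22023 CPM in host microglia, 10949 to 11768 in monocyte-derived and 9694 to 10910 in HSC-derived microglia, and 2965 to 4967 in both leptomeningeal groups. The 10 border macrophage markers summed to 827 to 992 CPM in host microglia, where Lyve1 and Cd209f were at 0, to 4149 to 4806 CPM in both groups of donor-derived microglia and to 8087 to 15013 CPM in the leptomeningeal groups. Transcripts of other cells also moved with the groups: 6 neutrophil markers summed to 1109 to 2707 CPM in monocyte-derived leptomeningeal macrophages and to 0 to 51.9 CPM elsewhere, and 12 T and NK cell markers to 620 to 1150 CPM there against 15.4 to 634 CPM elsewhere. The 7 monocyte markers summed to 12.7 to 168 CPM in the microglial groups and to 385 to 1001 CPM in the leptomeningeal ones, and choroid plexus markers to 2076 to 3519 CPM in host microglia against at most 482 CPM elsewhere. Erythroid markers, 4 genes, ranged from 0.67 to 232 CPM in host, 6.34 to 520 in monocyte-derived and 43.1 to 942 in HSC-derived microglia, and from 210 to 1182 and 443 to 4267 CPM in the monocyte-derived and HSC-derived leptomeningeal macrophages. The part of these transcripts in the results below was not tested.

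Ribosomal protein transcripts took the smallest share of counts in host microglia and the largest in leptomeningeal macrophages. The 87 genes together took 5.38, 5.15, 5.09 and 6.02% of all counts in the 4 host microglia libraries (5.41% ± 0.425, SD, n = 4). In monocyte-derived microglia they took 6.59, 7.21, 7.32 and 6.74% (6.96% ± 0.355, SD, n = 4). The 2 deeper HSC-derived microglia libraries had 8.77 and 8.99%, and the 2 shallow ones 14.4 and 13.7%. Monocyte-derived leptomeningeal macrophages had 13.9, 14.6, 14.8 and 14.2% (14.4% ± 0.403, SD, n = 4), and the HSC-derived ones 15.4% in the deeper and 19.4% in the shallow library. No library of one microglial group overlapped another group, and the shallow HSC-derived microglia lay at the level of the leptomeningeal macrophages rather than of their own group. A share of counts is relative to all other transcripts, and in sorted bulk samples fewer cells of a type and less RNA per cell cannot be told apart.

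**Figure D1:**
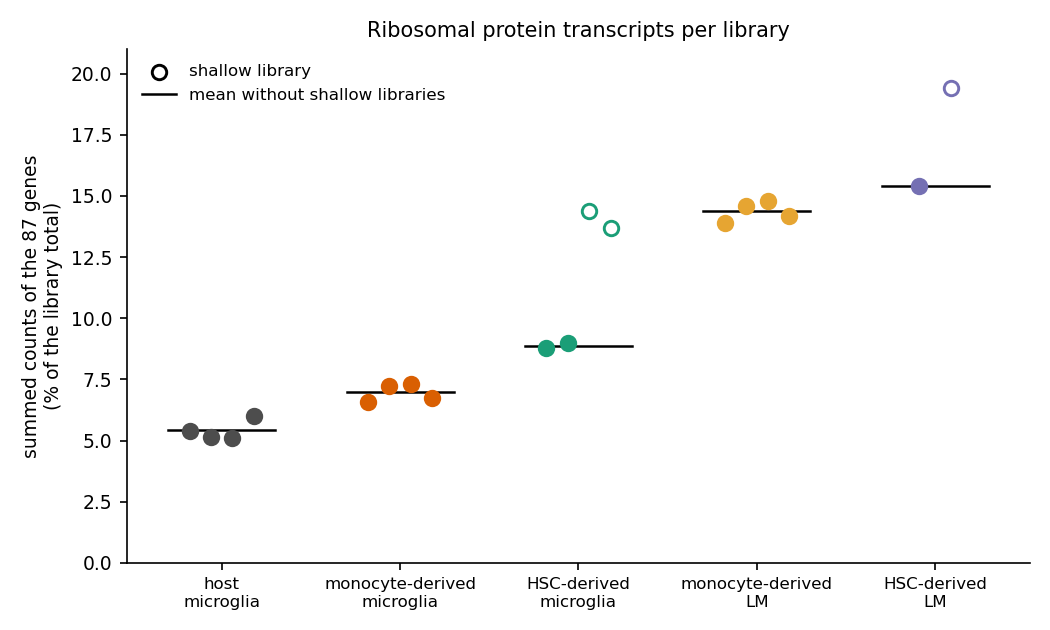
Summed counts of the 87 ribosomal protein genes as a percentage of each library's total, 1 point per library; open points are the 3 shallow libraries and the line is the group mean without them. Host microglia sit between 5.09 and 6.02%, monocyte-derived microglia between 6.59 and 7.32%, and the leptomeningeal groups between 13.9 and 19.4%.

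One gene bears directly on these shares. Apoe, the apolipoprotein that donor-derived microglia make in large amounts, took 0.35 to 0.41% of counts in host microglia, 9.12 to 10% in monocyte-derived microglia and 9.17 to 18.5% in HSC-derived microglia. With Apoe left out of the total, the ribosomal protein share was 5.11 to 6.04% in host, 7.26 to 8.11% in monocyte-derived and 9.9 to 17.6% in HSC-derived microglia, so the order of the groups was as before. The small and the large subunit contributed in similar measure, with a ratio of summed small- to large-subunit counts from 0.798 to 1.04 over the 18 libraries. Host microglia had the lowest group mean of the 5 groups for 63 of the 81 protein-coding members that passed the filter on low counts, and monocyte-derived microglia for the other 18. Over the 15 deeper libraries, 61 of the 81 followed the order host, monocyte-derived, HSC-derived microglia and then both leptomeningeal groups by mean level.

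Within the ribosomal protein transcripts the leading genes were much the same in every group. Rplp1, a stalk protein, was first or the runner-up in all 18 libraries and held 6.4% of ribosomal protein counts in host microglia, 6.17% in monocyte-derived microglia and 4.83% in monocyte-derived leptomeningeal macrophages (group means). Rps29, Rps14 and Rps21, all of the small subunit, were also among the most abundant members over all libraries. At the other end, Rpl24 was at 0.455 to 25.6 CPM and Rpl39l at 0 to 5.5 CPM, although every ribosome carries 1 Rpl24 protein. Of the 50-base windows in the last 300 bases of Rpl24, 81.3% also occurred in annotated transcripts of other genes. The rest of the genome was not searched. Rps6, the target of S6 kinase, Rpl13a and Rpl15 were also low, with means of 43.3, 50.5 and 28.9 CPM in host microglia. Copies with near-identical 3′ ends can split or lose reads, and 46 of the 82 protein-coding members had at least 50% of windows shared. The levels of these, Rpl24 and Rps6 among them, are uncertain. Rpl13a, Rpl15 and Rpl39l had 0 shared windows.

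In monocyte-derived against host microglia a minority of the members rose and a few fell. By edgeR's quasi-likelihood test (adjusted p under 0.05 over all 10597 tested genes), 21 of 85 tested members were higher and 4 lower; relative to the summed counts of the 87 genes, 14 were higher and 8 lower, against 6.07% and 23.0% of all genes. Over all tested genes 15.1% were higher and 15.1% lower, which is the background for these counts. The median log2 fold change was 0.29 over the members and 0.01 over all tested genes. The 2 members that did not pass the filter, Rpl39l and Rps12l1, had 0 to 8 counts in a library. The shallow libraries are not part of this comparison but share its estimate of the spread: without them 41 members were higher and 5 lower, against 20.0% and 18.5% of all genes, with the same median to within 0.01. The libraries of the groups did not overlap for 40 members higher and 6 lower, against 19.2% of all genes in either direction.

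Rpl13, a large-subunit protein, had the largest rise of this comparison. It stood at 402, 426, 396 and 434 CPM in host and 1318, 1389, 1548 and 1417 CPM in monocyte-derived microglia, a log2 fold change of 1.77 (SE 0.261, edgeR adjusted p = 8.93e-06). The groups were far apart and each was tight. Rps10, at the beak of the small subunit, had 180, 159, 141 and 177 CPM in host and 541, 502, 524 and 492 CPM in monocyte-derived microglia (log2 fold change 1.65, SE 0.403, edgeR adjusted p = 0.00611). Rps15a rose by 1.38 on the log2 scale, from 127 to 217 CPM in the 4 host libraries to 369 to 427 CPM. Rpl38, a small large-subunit protein known from the Tail-short mouse, rose from 222 to 250 CPM to 537 to 602 CPM (log2 fold change 1.29, edgeR adjusted p = 0.000299). None of these 4 genes had overlapping groups.

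Rps24, one of the genes mutated in Diamond-Blackfan anaemia, was the most abundant of the strongly raised members. Its level was 780, 745, 797 and 1088 CPM in host and 1926, 2131, 2108 and 2074 CPM in monocyte-derived microglia, with a log2 fold change of 1.27 (SE 0.199, edgeR adjusted p = 4.02e-06). No 50-base window of its last 300 bases occurred in annotated transcripts of other genes. Still, 2 pseudogene rows of Rps24 had group means of 11.6 CPM in host and 26.9 CPM in monocyte-derived microglia. Rpl26, which also binds p53 messenger RNA, rose from 468 to 613 CPM to 1054 to 1221 CPM, and Rpl7 from 235 to 329 CPM to 492 to 576 CPM. Rpl36a (log2 fold change 1.04) and Rpl39 (1.02) rose to a like degree. Genes with the same disease link did not all move: Rps19, the gene most often mutated in that anaemia, had a log2 fold change of 0.10 (edgeR adjusted p = 0.732), with 1023 to 1448 CPM in host and 1135 to 1340 CPM in monocyte-derived microglia. Rpl5 (0.01) and Rpl11 (0.36), which carry a small ribosomal RNA into the large subunit and bind Mdm2 when unassembled, did not pass the test either, although Rpl11 did without the shallow libraries (edgeR adjusted p = 0.00651).

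A group of 4 members moved against the rest. Rps4l, annotated as a transcribed processed pseudogene at chr6:148354656-148355598 (mm10, + strand) and a copy of Rps4x, had 40.8, 46.4, 54.1 and 40.9 CPM in host and 6.92, 5.79, 8.41 and 4.79 CPM in monocyte-derived microglia. This was the lowest log2 fold change of the members, -2.79 (SE 0.269, edgeR adjusted p = 1.92e-10), while Rps4x itself was at 0.30. Rpl29 fell by 1.32 on the log2 scale, from 288, 371, 295 and 355 CPM to 100, 146, 146 and 132 CPM. Rpl7l1, a relative of Rpl7 that acts in large-subunit assembly, fell by 0.78, and Rps27l, a p53-induced relative of Rps27, fell by 0.70, from 91.9 to 136 CPM to 57.5 to 71.2 CPM. The groups did not overlap for any of these 4. Rpl7a had a log2 fold change of -1.51 but missed the threshold (edgeR adjusted p = 0.0899): it stood at 468 to 663 CPM in host microglia and at 111, 146 and 117 CPM in 3 monocyte-derived libraries, against 431 CPM in replicate 3. Without that replicate its log2 fold change was -2.20 (edgeR adjusted p = 0.0231). The share of 3′ windows found in annotated transcripts of other genes was 80.5% for Rpl7a and 51.8% for Rpl29. It was 17.5% for Rps4l, 2.4% for Rpl7l1 and 21.9% for Rps27l, and its part in these falls was not tested.

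**Figure D2:**
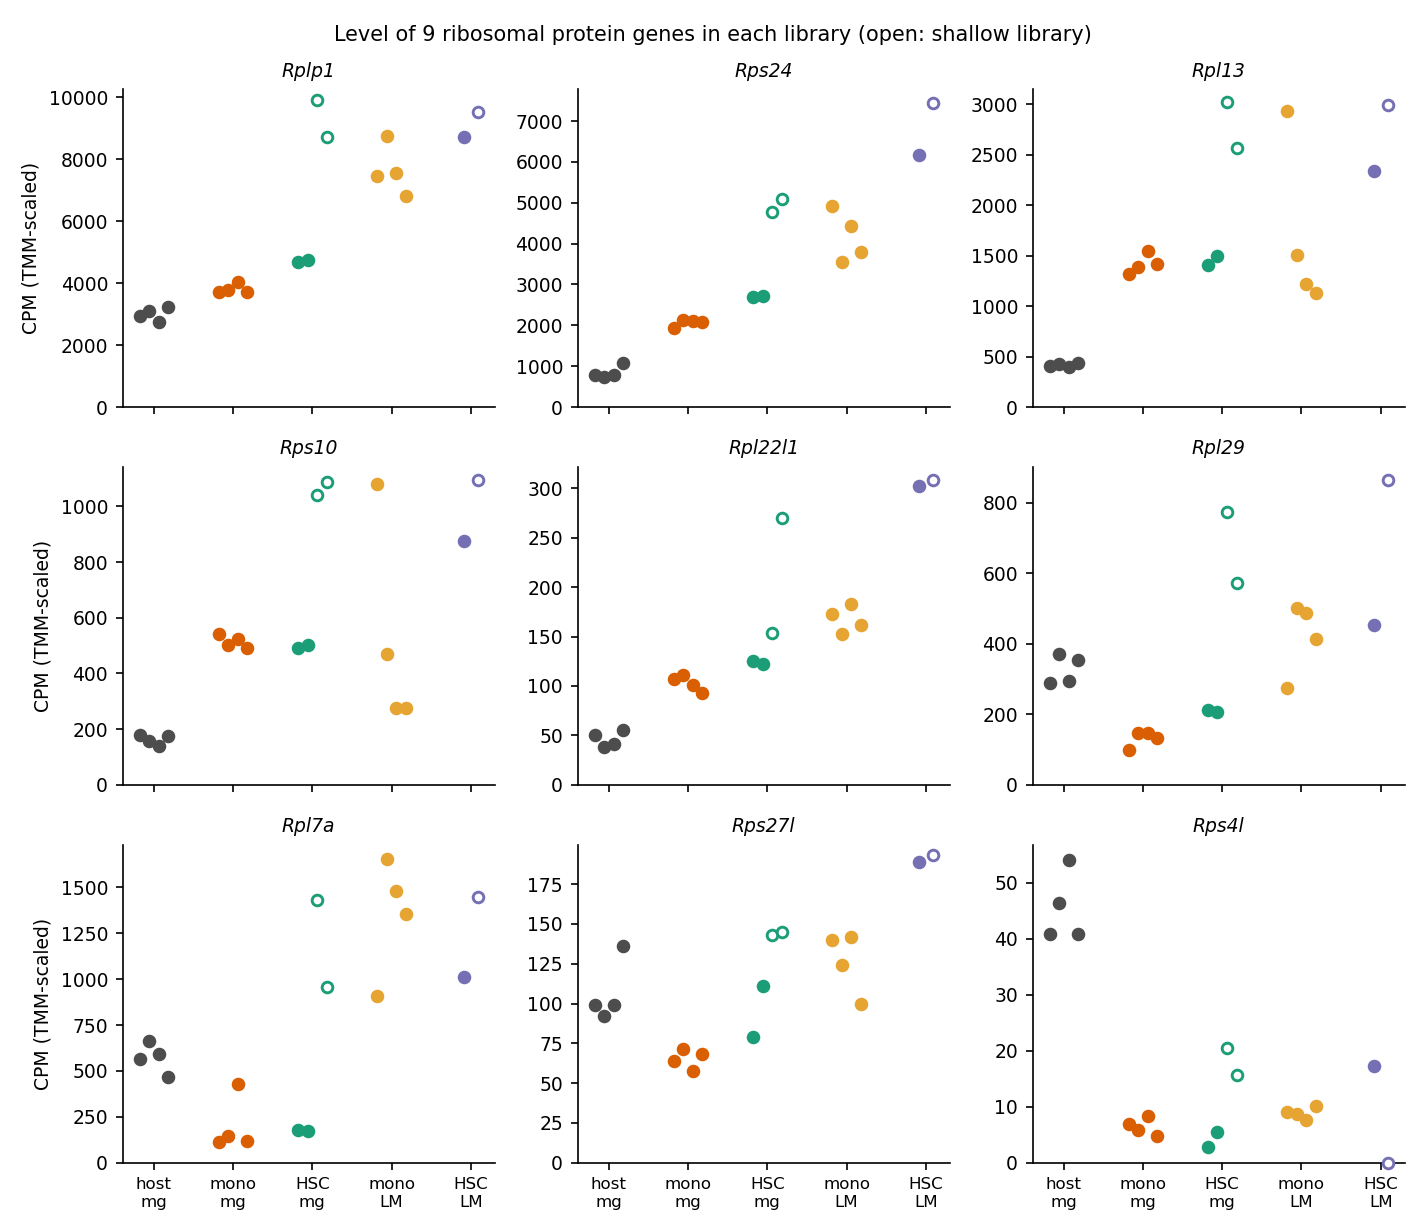
Level of 9 members in each library, as CPM scaled by TMM, on axes that start at 0; mg is microglia, LM leptomeningeal macrophages, and open points are shallow libraries. Rpl13 and Rps10 are at one level in both donor-derived microglial groups apart from the shallow libraries. Rpl29 and Rps27l are lower in monocyte-derived than host microglia. The deeper HSC-derived microglia libraries are also below host for Rpl29 (211 and 206 against 288 to 371 CPM), and at 79.3 and 111 against 91.9 to 136 CPM for Rps27l. Rps4l lies between 40.8 and 54.1 CPM in host microglia and at 0 to 20.5 CPM elsewhere.

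Nearly all members were higher in HSC-derived than in host microglia, by an amount that was larger with the 2 shallow libraries than without them. With all libraries, 78 of 85 members were higher and 1 lower, against 16.3% and 13.1% of all tested genes, and the median log2 fold change was 1.53; relative to the summed counts of the 87 genes, 17 were higher and 12 lower, against 5.47% and 72.0% of all genes. Without the 3 shallow libraries 71 were higher and 4 lower, against 13.7% and 12.2% of all genes, and the median was 0.81. Of the members called, 72 were called both times, all in the same direction. Both subunits moved: 31 of 33 small-subunit and 44 of 48 large-subunit members were higher with all libraries, and 30 and 40 without the shallow ones. The libraries of the groups did not overlap for 77 members higher and 1 lower, against 12% and 15.1% of all genes.

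Rps24 again led the abundant members. HSC-derived microglia had 2696 and 2729 CPM in the deeper and 4765 and 5096 CPM in the shallow libraries, against 745 to 1088 CPM in host microglia. The log2 fold change was 2.16 (SE 0.205, edgeR adjusted p = 2.26e-10), and 1.67 without the shallow libraries (edgeR adjusted p = 5.2e-12). Rpl13 had 1408 and 1498 CPM in the deeper and 3018 and 2567 CPM in the shallow libraries, with log2 fold changes of 2.35 and, without the shallow ones, 1.81. Rps10 (2.22 and 1.61) and Rps15a (2.32 and 1.82) were of like size. For these members the deeper HSC-derived libraries by themselves lay above every host library.

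The stalk proteins rose too. Host microglia held 2953, 3111, 2736 and 3226 CPM of Rplp1, and HSC-derived microglia 4696, 4744, 9915 and 8720 CPM, the last 2 being the shallow libraries (log2 fold change 1.22, edgeR adjusted p = 1.25e-05; 0.65 without them, adjusted p = 0.000155). Rplp2 had a log2 fold change of 1.61 with and 0.91 without the shallow libraries, and Rplp0, the scaffold of the stalk, 0.89 and 0.59. Rpsa, a small-subunit protein also known as the laminin receptor, had 1.4 and 0.94. Rpl3, at the peptidyl transferase centre, rose by 0.83 and 0.45. All of these were called both ways.

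Several members hung on the shallow libraries. Rpl10, a late-joining large-subunit protein, had 327 and 337 CPM in the deeper but 1850 and 1569 CPM in the shallow HSC-derived microglia, against 201 to 319 CPM in host microglia. Its log2 fold change of 1.91 (edgeR adjusted p = 0.0199) became 0.34 without the shallow libraries (adjusted p = 0.354). Rpl7a turned: it had 179 and 172 CPM in the deeper and 1430 and 959 CPM in the shallow libraries, against 468 to 663 CPM in host microglia, so that its log2 fold change was 0.18 with all libraries and -1.71 without the shallow ones (edgeR adjusted p = 0.0465). Rpl29 turned likewise, from 0.34 to -0.65 (adjusted p = 0.0242). Rpl7l1 went from -0.24 to -0.81 (adjusted p = 0.0225). The pseudogene-annotated Rps3a2 had 18.4 and 12.4 CPM in the deeper and 261 and 207 CPM in the shallow libraries, and its call was lost without them (log2 fold change 0.52). Rpl13a and Rpl24 lost theirs too, at 0.37 and 1.60. Rps4l was lower both times, with log2 fold changes of -2.58 and -3.44.

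**Figure D3:**
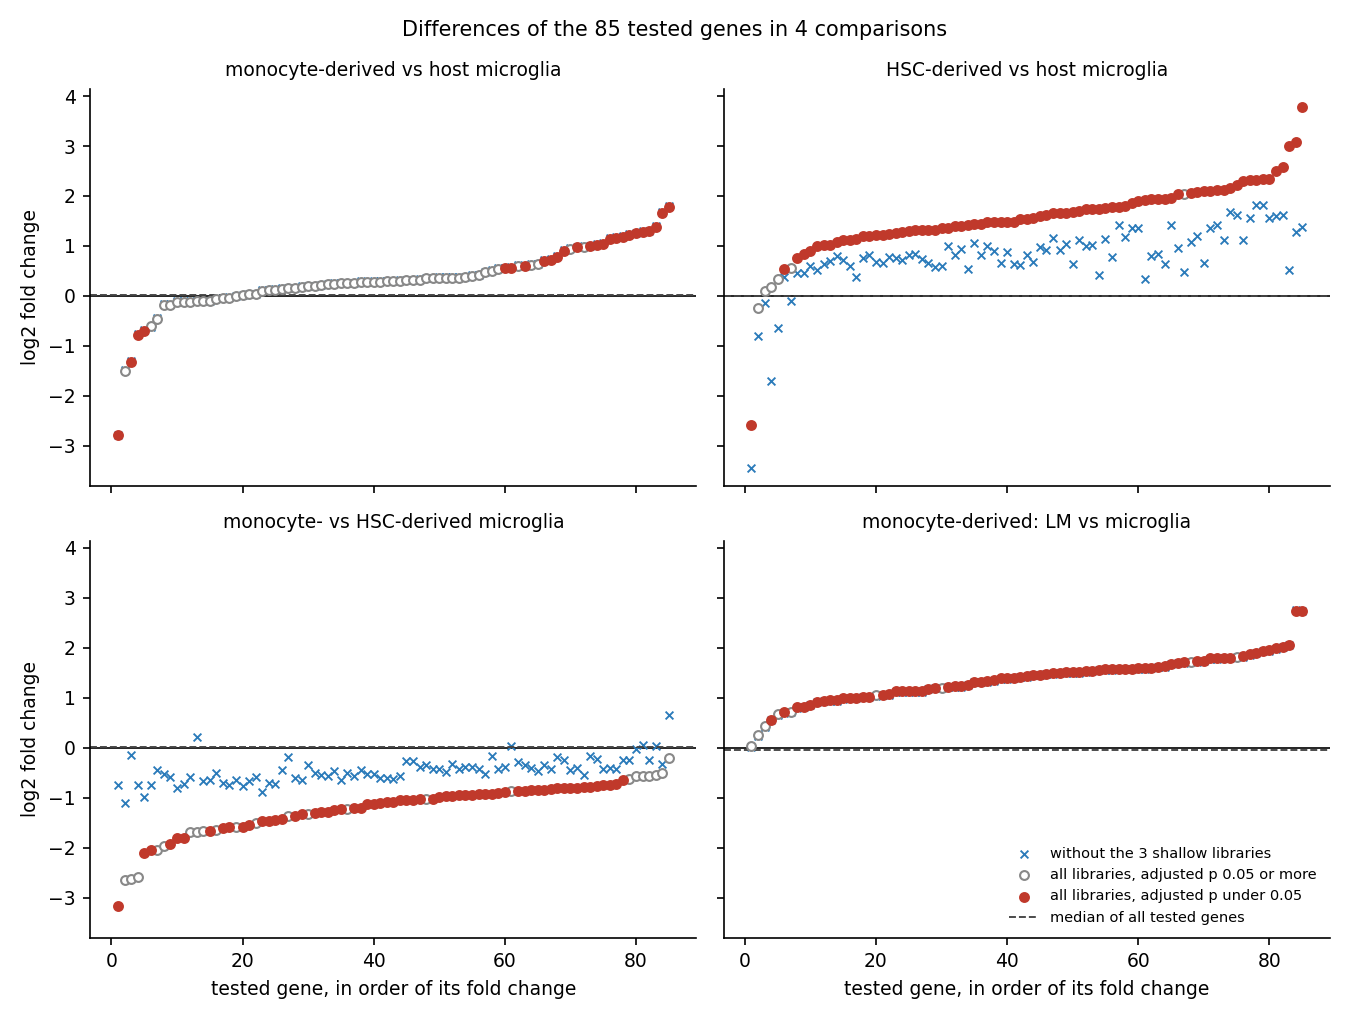
Log2 fold change of each of the 85 tested members in 4 comparisons, ordered by its value with all libraries; filled points have an edgeR adjusted p under 0.05, crosses are the same genes in the same order without the 3 shallow libraries, and the dashed line is the median of all tested genes. Values in HSC-derived against host microglia centre on 1.53 with and on 0.81 without the shallow libraries, while those of monocyte-derived leptomeningeal macrophages against microglia centre on 1.43 and 1.42.

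Set directly against each other, monocyte-derived microglia had less ribosomal protein transcript than HSC-derived microglia, and much of the size of this difference lay in the shallow libraries. With all libraries 62 members were lower and 0 higher by edgeR, with 81 lower and 0 higher at an unadjusted p under 0.05 and 76 lower and 0 higher by DESeq2. Of all tested genes edgeR called 1.76% lower and 0.123% higher by adjusted p, and DESeq2 4.95% and 0.264%. The share of all genes at an unadjusted p under 0.05 is not given. The median log2 fold change was -1.09, and relative to the summed counts of the 87 genes 1 member was higher and 12 lower, against 54.8% and 1.26% of all genes. Without the shallow libraries 14 members were lower and 0 higher, against 0.444% of all genes lower and 0.0283% higher, and the median was -0.44. At an unadjusted p under 0.05, 58 were then lower and 0 higher. The 14 were all among the 62. With only these 2 groups in the fit 4 members were lower, and leaving out 1 library at a time gave 15 to 76, the lowest without HSC-derived replicate 4 and 18 without replicate 3. Without monocyte-derived replicate 1, 2 or 4 it was 22, 37 or 29. The groups did not overlap for 73 members lower, against 5.58% of all genes.

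The 14 members, listed after their values were seen, were Fau, Rpl5, Rpl17, Rpl18, Rpl35, Rpl36, Rpl37a, Rplp2, Rps4x, Rps7, Rps9, Rps15, Rps23 and Rpsa. Fau, which encodes a small-subunit protein fused to a ubiquitin-like domain, had 527, 584, 606 and 582 CPM in monocyte-derived microglia and 944 and 988 CPM in the deeper HSC-derived libraries. Its log2 fold change was -0.73 without the shallow libraries (edgeR adjusted p = 0.00919) and -1.80 with them (adjusted p = 0.0149). Rps4x, the X-linked copy of its protein, had 233 to 314 CPM against 486 and 492 CPM (log2 fold change -0.80 without the shallow libraries, adjusted p = 0.00444). Rpl37a had 472 to 495 CPM against 720 and 742 CPM, and 3351 and 2610 CPM in the shallow libraries. Of the members raised over host microglia, Rpl13 had a log2 fold change of -0.02 and Rps10 of 0.06 without the shallow libraries, while Rps24 had -0.38 and Rps15a -0.42. None of these 4 passed the test without the shallow libraries. With all libraries Rps24 (-0.89, edgeR adjusted p = 0.0131) and Rps15a (-0.93, edgeR adjusted p = 0.0311) were called lower, and Rpl13 (-0.57) and Rps10 (-0.57) were not called. The monocyte-derived libraries are the same as in the comparison with host microglia.

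Leptomeningeal macrophages had more ribosomal protein transcript than microglia of the same origin. For monocyte-derived cells no shallow library is compared, although the shallow ones share the estimate of the spread. In that comparison 76 of 85 members were higher and 0 lower by edgeR, with 77 higher and 0 lower at an unadjusted p under 0.05 and 76 higher and 0 lower by DESeq2. Of all tested genes edgeR called 19.0% higher and 16.3% lower by adjusted p, and DESeq2 18% and 15.4%. The share of all genes at an unadjusted p under 0.05 is not given. The median log2 fold change was 1.43, against -0.04 over all genes, and relative to the summed counts of the 87 genes 13 were higher and 11 lower, against 3.57% and 80.1% of all genes. The small subunit had 32 of 33 members higher and the large subunit 44 of 48. The libraries of the groups did not overlap for 80 members, against 19.7% of all genes. Neutrophil and T cell transcripts were highest in these leptomeningeal libraries, as given above, and their part was not tested.

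Rpsa was at 589, 631, 638 and 615 CPM in monocyte-derived microglia and at 1960, 2709, 2443 and 2425 CPM in the leptomeningeal macrophages (log2 fold change 1.95, SE 0.188, edgeR adjusted p = 4.17e-10). Fau rose from 527 to 606 CPM to 1709, 2163, 2881 and 2385 CPM, by 1.99 on the log2 scale. Rpl7a had the largest difference, 2.74, at 909, 1655, 1480 and 1355 CPM in the leptomeningeal macrophages against 111 to 431 CPM. Rps6 went from 3.46 to 54.6 CPM to 175 to 217 CPM (log2 fold change 2.73, edgeR adjusted p = 0.00952). Rplp0 (1.58), Rps14 (1.60), Rps19 (1.48) and Rpl5 (1.79) rose too, and Rplp1 by 1.00. The 4 leptomeningeal libraries lay above all 4 microglial libraries for each of these genes.

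Rps10 and Rpl13, both raised in donor-derived microglia, had small differences between the compartments. Rps10 had 1080, 470, 275 and 277 CPM there, against 492 to 541 CPM in monocyte-derived microglia, a log2 fold change of 0.03, and Rpl13 had 2930, 1503, 1219 and 1125 CPM against 1318 to 1548 CPM, a log2 fold change of 0.26. Neither passed the test, and in both the first replicate was far above the other 3. Without that replicate the log2 fold changes were -0.61 for Rps10 (edgeR adjusted p = 0.0577) and -0.15 for Rpl13. The other members not called with all libraries were Rps4l, Rpl30, Rpl27a, Rpl24, Rps3a3, Rpl32l and Rps3a2. Of these, Rpl27a, Rpl30, Rpl32l, Rps3a2 and Rps3a3 were called higher once the shallow libraries were left out of the shared estimate of the spread. Rpl39 was called at 0.56, and lost its call without the first replicate (0.41, edgeR adjusted p = 0.125). These comparisons share the monocyte-derived microglia, so the values are set side by side and not as independent evidence.

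The first replicate of the monocyte-derived leptomeningeal macrophages had a profile of its own among the members, which was looked at after the values were seen. It lay above the other 3 libraries of its group for 20 of the 81 protein-coding members tested and below them for 49. Of the 21 members called higher in monocyte-derived than host microglia it lay above in 14 and below in 3; of the other 60 it lay above in 6 and below in 46. Its summed share, 13.9%, was the lowest of the group by a small margin, and its share of ribosomal pseudogene counts, 0.251%, was above the 0.119 to 0.157% of the other 3. The microglial marker P2ry12 was at 626 CPM in this library against 265 to 284 CPM in the other 3, and Tmem119 at 256 against 184 to 218 CPM. The part of these differences in the profile was not tested. Without it, 73 members were higher in leptomeningeal macrophages than in microglia, with a median of 1.52.

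The HSC-derived comparison between the compartments varied with the libraries and the fit used. With all libraries 19 members were higher in leptomeningeal macrophages and 0 lower by edgeR, with 42 higher and 0 lower at an unadjusted p under 0.05 and 16 higher and 0 lower by DESeq2. Of all tested genes edgeR called 5.75% higher and 3.97% lower by adjusted p, and DESeq2 5.75% and 3.28%. The share of all genes at an unadjusted p under 0.05 is not given, with or without the shallow libraries. The median log2 fold change was 0.61. Relative to the summed counts of the 87 genes, edgeR called 0 members, against 1.43% of all genes higher and 13.4% lower. Without the shallow libraries, which leaves 1 leptomeningeal and 2 microglial libraries and borrows the spread of the other groups, 72 were higher and 0 lower by edgeR, with 75 and 0 at an unadjusted p under 0.05, against 8.4% and 5.11% of all genes, with a median of 1.05. The 19 were all among the 72. With only these 2 groups in the fit 0 members were called, and leaving out 1 library at a time gave 4 to 40: 4 and 7 without leptomeningeal replicate 1 and 2, 11 without microglial replicate 1 or 2, and 40 and 29 without replicate 3 and 4. Rpl7 had 1544 CPM in the deeper leptomeningeal library and 606 and 598 CPM in the deeper microglial ones, and Rpl22l1 had 302 against 125 and 122 CPM.

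Monocyte-derived and HSC-derived leptomeningeal macrophages differed in few members. Only Rpl39 was called, lower in the monocyte-derived cells, with 995, 593, 785 and 682 CPM against 1424 CPM in the deeper and 1779 CPM in the shallow HSC-derived library (log2 fold change -1.06, SE 0.24, edgeR adjusted p = 0.0389; 0.142% of all genes were lower and 0.16% higher). No member was higher by edgeR, and DESeq2 called 4 lower and 0 higher, against 0.997% and 0.942% of the genes it gave an adjusted p. At an unadjusted p under 0.05, 19 were lower and 0 higher by edgeR, and the share of all genes at that threshold is not given. Rpl22l1 (-0.85, adjusted p = 0.0103) and Rpl7 (-0.72, adjusted p = 0.0344) joined Rpl39 without the shallow library, which leaves a single HSC-derived library whose spread is taken from the other groups (0.387% of all genes lower and 0.255% higher). With only these 2 groups in the fit no member was called, and without monocyte-derived replicate 2, 3 or 4 or either HSC-derived replicate alone the count was also 0. Without monocyte-derived replicate 1 it was 4. The median log2 fold change was -0.42 with and -0.11 without the shallow libraries.

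Whether the step from microglia to leptomeningeal macrophages differed between the origins was tested as an interaction. With all libraries edgeR called 0 members in either direction, with 37 positive and 0 negative at an unadjusted p under 0.05 and 7 positive and 0 negative by DESeq2. Of all tested genes edgeR called 0.0566% positive and 0.0% negative by adjusted p, and DESeq2 4.68% and 0.532% of the few it gave an adjusted p. The share of all genes at an unadjusted p under 0.05 is not given. The median of the difference was 0.76 on the log2 scale, and 0.40 without the shallow libraries. Rpl37a then passed alone, with a difference of 0.97 (SE 0.203, edgeR adjusted p = 0.0469), beside 0.0566% of all genes positive and 0.00944% negative. That fit has 1 HSC-derived leptomeningeal and 2 HSC-derived microglial libraries and assumes that they vary like the other groups. The microglial libraries of the direct comparison above also enter this difference.

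Pairs of closely related members did not keep to one ratio. Rpl22 and Rpl22l1 encode alternative forms of one large-subunit protein: host microglia had 267 to 323 CPM of Rpl22 and 38.7 to 55.6 CPM of Rpl22l1, and monocyte-derived microglia 317 to 394 and 92.6 to 111 CPM. Rpl22l1 rose by 1.15 on the log2 scale (SE 0.176, edgeR adjusted p = 2.55e-06) while Rpl22 had 0.32 (adjusted p = 0.216). Rps27 and Rps27l parted more: Rps27 had a log2 fold change of 0.63 (adjusted p = 0.147; called without the shallow libraries, adjusted p = 5.97e-05), and Rps27l fell by 0.70. Rpl7 rose by 0.97 and Rpl7l1 fell by 0.78. The difference within a pair was not itself tested. Rpl39l, the relative of Rpl39 known from testis, had at most 8 counts in a library.

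Scaled to the summed counts of the 87 genes, a member is compared with the rest of the ribosome rather than with the cell. This scaling moved the median of all tested genes by design, to -0.39 in monocyte-derived and -1.25 in HSC-derived against host microglia, and to -1.38 in leptomeningeal macrophages against microglia of monocyte origin. In monocyte-derived against host microglia Rpl13 (1.37), Rps10 (1.26), Rps15a (0.99), Rpl38 (0.89) and Rps24 (0.88) remained above the other members by this test, and Rps4l (-3.21), Rpl7a (-1.96), Rpl29 (-1.73), Rpl7l1 (-1.19) and Rps27l (-1.09) below. Between compartments Rpl7a (1.42), Rps6 (1.36), Fau (0.63) and Rpsa (0.59) gained on the other members and Rps10 (-1.27), Rpl13 (-1.05) and Rpl39 (-0.77) lost. So the share of Rps24 in ribosomal protein counts was 1.8% in host and 3.32% in monocyte-derived microglia, and that of Rpl29 0.697 and 0.211% (group means).

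The shallow libraries raised almost every member, but unevenly. In HSC-derived microglia both shallow libraries lay above both deeper ones for all 81 protein-coding members tested, with a median ratio of 2.12 over the 82 protein-coding members. The ratio was lowest among the tested ones for Rpl13a, at 1.39, and highest for Rpl7a, at 6.82, followed by Rps6 at 6.22 and Rpl10 at 5.15. Members with no 50-base window of their last 300 bases in annotated transcripts of other genes had a median of 1.82 (21 genes). Those with at least 50% of windows shared had 2.38 (46 genes). Rows of ribosomal pseudogenes took 0.787 and 0.748% of counts in the shallow libraries against 0.15 and 0.152% in the deeper ones. Mitochondrially encoded genes took 1.78 and 1.94% against 1.39 and 1.37%. In HSC-derived leptomeningeal macrophages the shallow library lay above the other for 77 of the 81, with a median ratio of 1.32. Depth, pseudogene counts and ribosomal protein share thus moved together over these libraries, and which of them bears on the others was not tested.

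**Figure D4:**
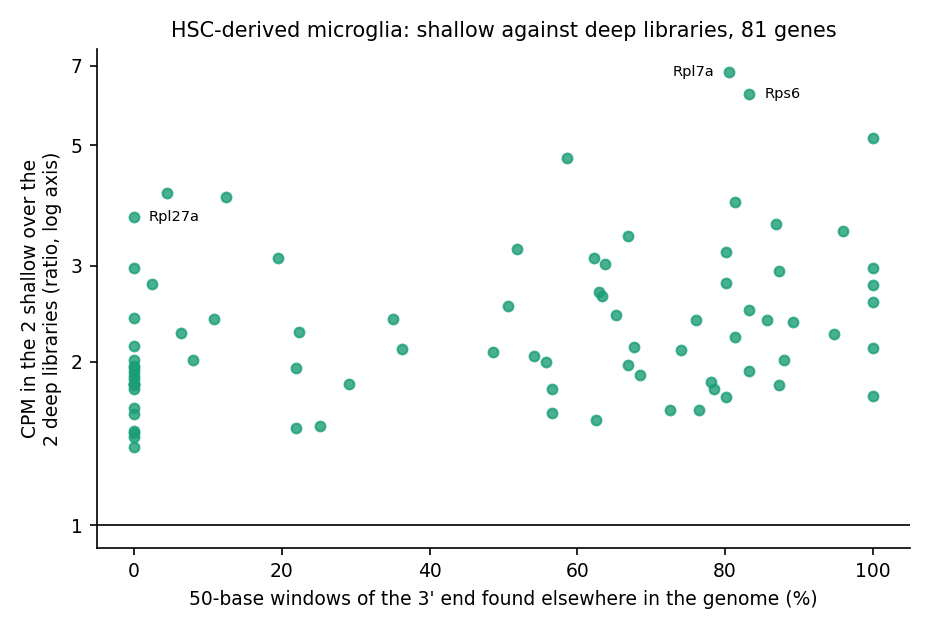
Ratio of mean CPM in the 2 shallow to that in the 2 deeper HSC-derived microglia libraries (log axis) for 81 protein-coding members. The horizontal axis is the percentage of 50-base windows in the gene's last 300 bases found in annotated transcripts of other genes. Only such transcripts were searched, although the axis label reads genome. All points lie above 1, and Rpl7a and Rps6, with most windows shared, are the highest.

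Calls were also made among the members whose last 300 bases share no 50-base window with annotated transcripts of other genes. Some of these still have pseudogene rows with counts, such as Rpsa, whose 7 rows had group means of 13.3 CPM in host and 187 CPM in HSC-derived microglia. Of the 20 such members tested, 19 were higher in HSC-derived than host microglia with all libraries (median 1.26) and 17 without the shallow ones (median 0.77), against 16.3% and 13.7% of all genes. In leptomeningeal macrophages against microglia of monocyte origin 19 of the 20 were higher, with a median of 1.34, against 19.0% of all genes. In monocyte-derived against host microglia 6 of the 20 were higher and 0 lower by edgeR, and 13 higher without the shallow libraries, against 15.1% and 20.0% of all genes higher.

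Other genes of the translation apparatus were called in part. Unless said otherwise, values for HSC-derived microglia are with all libraries, the shallow ones included. Beside the counts that follow stand 15.1% of all genes higher and 15.1% lower in monocyte-derived against host microglia, 16.3% and 13.1% in HSC-derived against host microglia, and 19.0% and 16.3% between the compartments for monocyte-derived cells. Of 24 tested elongation factors and other known 5′TOP genes, 9 were higher and 1 lower in monocyte-derived than host microglia, 18 were higher and 0 lower in HSC-derived than host microglia (13 without the shallow libraries), and 19 were higher and 0 lower in leptomeningeal macrophages than in microglia of monocyte origin. Eef1b2, an elongation factor subunit, had 389 ± 31.8 CPM in host and 641 ± 44.6 CPM in monocyte-derived microglia (SD, n = 4 each). HSC-derived microglia had 809 and 841 CPM of it in the deeper and 1578 and 1264 CPM in the shallow libraries. Eef1b2 was called in both comparisons with host microglia. Other members of the list were flat in monocyte-derived against host microglia, with log2 fold changes of 0.03 for Eef1a1 and Eef2, which carry out elongation, and -0.21 for Tpt1; none of these passed the test there. Npm1, a nucleolar chaperone of ribosome assembly, rose by 0.73 and 1.32 on the log2 scale, and Eif3h by 0.39 and 1.08. Rack1, a ribosome-bound signalling scaffold that the rule on symbols left out, had log2 fold changes of 0.28 (adjusted p = 0.244) and 0.92 (adjusted p = 0.000122), and of 1.77 between the compartments, where it reached 3237 ± 602 CPM (SD, n = 4) in the leptomeningeal macrophages. Vim, an intermediate filament gene on the same list, rose by 3.33, 4.23 and 3.23 in these 3 comparisons. Rpl36al, the relative of Rpl36a outside the rule, rose by 1.37 in monocyte-derived and by 2.04 in HSC-derived microglia.

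Genes that build and initiate ribosomes were called in both directions in microglia, at shares to be read against those of all genes just given. The counts and fold changes for HSC-derived microglia are again with all libraries, and those without the shallow ones are not given. Of 22 initiation factors 2 were higher and 7 lower in monocyte-derived than host microglia, and 4 higher and 2 lower in HSC-derived microglia. Of 37 genes of ribosome biogenesis and RNA polymerase I, 2 were higher and 6 lower, and 5 higher and 4 lower. Nmd3, the export adaptor of the large subunit, rose by 1.67 and 1.47, from 32.4 ± 2.57 CPM in host microglia to 104 ± 15 and 87.9 ± 19.5 CPM (SD, n = 4 each). Polr1a, the largest subunit of RNA polymerase I, fell by 1.25 and 2.00 and Nop2 by 1.01 and 1.03. Polr1a had 2.83 and 6.87 CPM in the deeper HSC-derived libraries and 0 in the shallow ones, where 3 counts equal 15.4 and 11.7 CPM. Its host mean was 14.8 CPM, near that floor, so the shallow libraries say little about its fall. Of 25 genes of the mTORC1 and S6 kinase pathway 1 was higher and 7 lower in monocyte-derived microglia, and 2 higher and 3 lower in HSC-derived microglia. Rptor, the scaffold of mTORC1, fell by 1.13 and 1.19, and the stress-induced inhibitors of mTORC1 went apart, Sesn1 rising by 1.44 and 1.14 and Sesn2 falling by 1.93 and 2.47. Larp1, which binds the 5′TOP motif, had log2 fold changes of -0.38 and 0.05 and did not pass the test.

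Between compartments more of these lists moved. In leptomeningeal macrophages against microglia of monocyte origin 11 of 22 initiation factors were higher and 0 lower by edgeR, 12 of 37 biogenesis genes were higher and 1 lower, and 6 of 25 mTORC1 pathway genes were higher and 6 lower, beside 19.0% of all genes higher and 16.3% lower. Mitochondrial ribosomal proteins, which serve a separate ribosome, had 4 of 71 higher and 14 lower in monocyte-derived than host microglia (15.1% of all genes in either direction), 8 higher and 1 lower in HSC-derived than host microglia (16.3% and 13.1% of all genes; 4 higher and 9 lower without the shallow libraries, against 13.7% and 12.2%), and 17 higher and 1 lower between the compartments. Of 117 tested rows of ribosomal pseudogenes, 12 were higher and 1 lower in monocyte-derived than host microglia, against 15.1% of all genes higher and 15.1% lower. Without the shallow libraries 34 were higher and 1 lower, against 20.0% and 18.5% of all genes. In HSC-derived microglia 92 were higher with all libraries, against 16.3% of all genes, and 20 without the shallow ones, against 13.7%.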

How the data were processed

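Bulk RNA of 18 sorted populations was measured by MARS-seq, a 3′ method with molecular identifiers. The authors deposited a table of raw UMI counts per gene, and mm10 is the build per the submitters' processing notes; for the aligner and the counter, nothing is given in the sources used here. A further 2 raw columns matched no sample and were not used. Counts were tested with edgeR 4.0.16 in R 4.3.3 (TMM, filterByExpr, robust quasi-likelihood test, all 18 libraries in 1 fit), which tested 10597 of 13043 genes, with Benjamini-Hochberg adjustment over all of them and a threshold of 0.05. DESeq2 1.42.0 was an alternative, beside other scalings, no filter, only the groups compared, the replicate number as a block and each library left out. The procedure was tested on simulated data. CPM is scaled by TMM. Depth was 154727 to 2440234 counts, and intervals or floors cover counting error only. Sequence windows and 3′ ends were read with Python 3.11.15.

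The members and lists were chosen with earlier results of these data known. Members named in the text were a fixed set by role and paralogy, the 3 highest and 3 lowest log2 fold changes of each comparison, members that were not called where most were or were called against the rest, the 5 most abundant, and those that did not pass the filter; 4 genes per other translation list with the smallest p in HSC-derived against host microglia were added to a fixed set. A few named members are not reported here.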

Additional observations from a re-analysis of the deposited data

Results flagged for a closer look

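Within groups of 4 libraries, the highest or lowest value of a named member was set against the others by Dixon's criterion for 4 values. It singled out 10 of 180 groups, or 5.56%, and chance gives about 1 in 20.

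Host microglia replicate 4 stood above the other 3 for 4 members: Rps24 at 1088 CPM against 745 to 797 CPM, Rpl22 at 323 against 267 to 275 CPM, Rpl39 at 313 against 233 to 240 CPM, and Rps27l at 136 against 91.9 to 99 CPM. The same library had the highest level of its group for 58 of the 81 protein-coding members tested. Monocyte-derived microglia replicate 3 had 431 CPM of Rpl7a against 111 to 146 CPM, and replicate 4 had 487 CPM of Rpl30 against 541 to 552 CPM. In monocyte-derived leptomeningeal macrophages, replicate 1 had 746 CPM of Rpl5 against 983 to 1006 CPM and 21.8 CPM of Rps3a2 against 55.9 to 59.9 CPM. Replicate 2 of that group had 2779 CPM of Rpl11 against 2016 to 2088 CPM. Replicate 3 had 0.638 CPM of Rpl39l where the others had 0, which is a single count and under the level of 3 counts.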

How the results depend on the processing

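Of 122 calls of named members, 120 held with DESeq2, 121 with DESeq2 size factors in edgeR, 121 with ribosomal protein genes left out of the scaling, 119 without the filter, 119 with the replicate block, 97 without the 3 shallow libraries and 81 with only the groups compared in the fit; 75 held in every alternative other than scaling to the summed ribosomal protein counts. Among 32 pairs of libraries with the same replicate number, 1 correlation of deviations was above 0.1. The median was -0.00027, and -0.00188 for pairs with different numbers. No pairing by number was seen, but with few libraries per group this cannot exclude that the same number marks the same mouse. The replicate block gave 2 calls between the leptomeningeal groups and 38 between HSC-derived leptomeningeal macrophages and microglia, and no other count moved by over 1.5 times. Without the shallow libraries the members called, in either direction, were 46 in monocyte-derived against host microglia, 14 in monocyte-derived against HSC-derived microglia, 3 between the leptomeningeal groups, 72 between the HSC-derived compartments and 1 in the interaction, and Rpl29 (-0.65) and Rpl7a (-1.71) turned in HSC-derived against host microglia. With only the groups compared they were 54, 4, 0 and 0 in the first 4 of these comparisons. DESeq2 called 4 between the leptomeningeal groups and 7 in the interaction. In leptomeningeal macrophages against microglia of monocyte origin edgeR called 76 with all libraries and 81 without the shallow ones. Leaving out 1 library at a time gave 21 to 25 calls in monocyte-derived and 75 to 80 in HSC-derived against host microglia, 15 to 76 in monocyte-derived against HSC-derived microglia, 0 to 4 between the leptomeningeal groups, 72 to 74 and 4 to 40 between the compartments for monocyte-derived and HSC-derived cells, and 0 in the interaction. In monocyte-derived against HSC-derived microglia the lowest count, 15, came without HSC-derived replicate 4, and it was 18 without replicate 3, 22 and 29 without monocyte-derived replicates 1 and 4, and 37 without replicate 2; between the HSC-derived compartments it was 4 and 7 without leptomeningeal replicates 1 and 2, 11 without microglial replicate 1 or 2, and 40 and 29 without replicates 3 and 4. The summed share ranged over 5.21 to 5.52% in host, 6.85 to 7.09% in monocyte-derived and 10.5 to 12.3% in HSC-derived microglia, and over 14.2 to 14.5% and 15.4 to 19.4% in the leptomeningeal groups; without Apoe in the total it was 7.7% in monocyte-derived microglia and 15.2% in monocyte-derived leptomeningeal macrophages. Scaling to the summed ribosomal protein counts holds their sum level between libraries by construction, and not the mean log2 fold change of the members. With it calls were 29 in HSC-derived against host microglia, 13 between the donor-derived microglia and 0 between the leptomeningeal groups. Between the compartments they were 24 and 0 for monocyte-derived and HSC-derived cells. This scaling shifts the genes of a comparison by unequal amounts. In HSC-derived against host microglia Rpl7a went from 0.18 to -1.54 and Rps4l from -2.58 to -3.81. The log2 fold changes below turned sign and were called with at least 1 of the scalings; others, called with neither, also turned. In HSC-derived against host microglia they were Rpl11 -0.34, Rpl13a -0.75, Rpl22 -0.33, Rpl29 -1.20, Rpl3 -0.60, Rpl41 -0.15, Rpl7a -1.54, Rplp0 -0.52, Rplp1 -0.27, Rps19 -0.41, Rps21 -0.06, Rps27l -1.22 and Rpsa -0.05. In monocyte-derived against HSC-derived microglia they were Rpl11 0.29, Rpl22 0.25, Rpl26 0.32, Rpl3 0.38, Rpl38 0.10, Rpl39 0.12, Rpl7 0.30, Rplp0 0.26, Rplp1 0.22, Rps15a 0.12, Rps19 0.11, Rps21 0.08, Rps24 0.18 and Rps27l 0.13. In leptomeningeal macrophages against microglia of monocyte origin they were Rpl11 -0.22, Rpl13 -1.05, Rpl13a -0.29, Rpl22 -0.27, Rpl22l1 -0.64, Rpl26 -0.47, Rpl27a -0.62, Rpl3 -0.17, Rpl30 -0.66, Rpl36a -0.14, Rpl38 -0.11, Rpl39 -0.77, Rpl7 -0.51, Rpl7l1 -0.36, Rplp1 -0.35, Rps10 -1.27, Rps15a -0.33, Rps21 -0.10, Rps24 -0.32, Rps27l -0.40, Rps29 -0.40 and Rps4l -0.89, and between the HSC-derived compartments Rpl3 -0.01. The cause of the other changes was not tested, and a level near that of 3 counts (1.05 to 23.1 CPM) limits what the shallow libraries show for low members such as Rpl24.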
